A study of Mus musculus with 6 samples.

Results

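The control arm of this study was described on its own, as the baseline chromatin accessibility of skeletal muscle fibre nuclei. It consists of the 3 LacZ-shRNA libraries out of 6 in the series, taken by their label, with every row they hold in a table of 49366 gene start windows and a table of 36097 peaks. Male C57BL/6J mice aged 8 weeks received an AAV6 vector with an shRNA against lacZ, a bacterial gene, in gastrocnemius and tibialis anterior (TA) muscles, and tissue was taken at 28 days. Each library pooled 4 gastrocnemius and 4 TA muscles, the opposite limb received a vector against Yap, and every muscle pooled for this series was injected. Nuclei were sorted for Pcm1, a protein that surrounds the nuclei of differentiated muscle fibres, before ATAC-seq. Gastrocnemius and TA cannot be told apart in these pools, and spread between libraries is spread between pools. The libraries are named LacZ-1, LacZ-2 and LacZ-3 and their values are listed in that order.

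In ATAC-seq a transposase inserts sequencing adapters where DNA is not covered by nucleosomes, so read density reports how open a stretch of chromatin is. Promoters of active genes and bound enhancers are open, whereas genes kept silent in a cell type are mostly closed. Muscle fibres are syncytia with many nuclei in one cytoplasm, and fast fibres use other isoforms of myosin, troponin and the calcium pump than slow fibres do. Gastrocnemius and TA of the mouse are mainly fast muscles.

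Sequence upstream of the genes that mark these nuclei is shown first, because these genes are specific to muscle fibres and because matches to sites of muscle factors can be seen in it. Acta1 encodes skeletal α-actin, Ckm the muscle creatine kinase, Myh4 the fast 2B myosin heavy chain and Atp2a1 the fast calcium pump SERCA1. The stretches lie upstream of the RefSeq start in GRCm38.p6 and leave out annotated untranslated exons. Capitals mark matches on either strand to CAGCTG (an E-box bound by myogenic factors), ACATTCC (TEAD), TCAGGTT (MEF3), the MEF2 consensus and the CArG box of SRF, and matches to TATAAA in the direction of the gene.
Acta1, chr8:123894776-123895025, minus strand: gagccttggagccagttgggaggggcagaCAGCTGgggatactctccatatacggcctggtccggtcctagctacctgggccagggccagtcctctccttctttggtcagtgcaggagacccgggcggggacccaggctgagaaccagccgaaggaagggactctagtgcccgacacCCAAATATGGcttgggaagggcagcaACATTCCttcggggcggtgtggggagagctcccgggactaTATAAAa
Ckm, chr7:19410844-19411024, plus strand: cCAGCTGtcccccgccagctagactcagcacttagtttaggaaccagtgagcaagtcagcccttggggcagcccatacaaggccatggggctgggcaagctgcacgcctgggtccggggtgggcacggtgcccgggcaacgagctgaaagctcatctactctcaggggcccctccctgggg
Myh4, chr11:67237562-67237811, plus strand: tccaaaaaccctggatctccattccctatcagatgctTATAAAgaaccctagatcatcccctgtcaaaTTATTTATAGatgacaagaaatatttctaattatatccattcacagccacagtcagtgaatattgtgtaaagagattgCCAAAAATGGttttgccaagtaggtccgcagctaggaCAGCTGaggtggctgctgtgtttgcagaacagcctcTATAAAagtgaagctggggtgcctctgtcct
Atp2a1, chr7:126463109-126463323, minus strand: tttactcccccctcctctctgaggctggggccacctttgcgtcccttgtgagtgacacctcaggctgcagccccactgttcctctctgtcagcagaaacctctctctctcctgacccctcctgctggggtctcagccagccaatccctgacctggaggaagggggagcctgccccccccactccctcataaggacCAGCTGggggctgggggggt

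The Acta1 stretch held an E-box from 221 to 216 bases upstream of the start, a CArG box from 73 to 64, a TEAD match from 47 to 41 and TATAAA from 7 to 2. In Myh4 a MEF2 match lay from 182 to 173 bases upstream, a CArG box from 104 to 95, an E-box from 67 to 62, and TATAAA from 213 to 208 and from 31 to 26. An E-box was the only match in the Ckm and Atp2a1 stretches. These end 70 and 36 bases upstream of the start, so matches nearer to it could not be seen. Among 32851 RefSeq promoters, the 250 bases upstream held CAGCTG in 13%, ACATTCC in 3.25%, TCAGGTT in 3.49%, the MEF2 consensus in 2.92%, the CArG box in 1.47% and TATAAA in 7.59%. A match describes letters only, and binding was not tested.

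Depth differed between the libraries, with window counts of 5431766, 3326803 and 8964441 and peak counts of 3824989, 2588520 and 6871176. No library repeated another, as the chi-square between any pair, scaled to the number of features, reached at least 2.35. Spearman correlations between libraries ran from 0.946 to 0.974 across 20540 protein-coding windows and from 0.951 to 0.966 across peaks, where the points are features of the same libraries. LacZ-1 stood apart in its background. The 1064 olfactory receptor windows that overlap no other gene's window were used as a measure of closed chromatin, and their median was 4.33 CPM per kb (counts scaled to the library total, CPM, per kilobase of window) in LacZ-1 against 2.55 and 2.85 in the others. The 90th percentile of protein-coding windows was 2.47 times that background in LacZ-1, 4.71 times in LacZ-2 and 4.59 times in LacZ-3, so open and closed windows were separated least in LacZ-1.

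The windows of the 5 marker genes were all strongly open. Atp2a1 held 49.3, 74.4 and 67.0 CPM per kb, a mean of 63.6 ± 12.9 (SD, n = 3) at the 99.9th percentile of protein-coding windows. Ckm held 38.6, 44.3 and 46.7 CPM per kb and Acta1 31.2, 33.5 and 40.97. Tnnt3, the fast troponin T gene, held 28.5, 38.2 and 38.9. Myh4 was the lowest of the 5 at 12.5, 16.1 and 16.8 CPM per kb, still at the 94.9th percentile. LacZ-1 gave the lowest value for each of them. The Acta1, Ckm and Myh4 windows overlap another gene's window, where reads that fall on both were not counted, so their levels are lower limits. The peak over the Myh4 start (chr11:67235524-67238287) held 31.6, 40.5 and 40.8 CPM per kb. Atp2a1, Tnnt3 and Ckm, 3 of the 5 markers, had no peak within 1 kb of a start.

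A window was read as open when it lay above the 95th percentile of olfactory receptor windows in all 3 libraries (6.58, 4.96 and 4.96 CPM per kb). By this rule 7003 of 20540 protein-coding windows (34.1%) were open. Only 15 of 1130 olfactory receptor windows (1.33%) were, but the limit was set from these windows, so their low share follows from the rule. The median protein-coding window held 5.65, 5.33 and 5.65 CPM per kb, close to the limit, so the step from closed to open was shallow. Other kinds of gene were above it less often, with 16.7% of antisense genes, 12.3% of lincRNA genes and 3.53% of processed pseudogenes.

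At the very top stood windows with signal far outside the rest. Of the 14638 protein-coding windows that overlap no other, 8 exceeded 100 CPM per kb. Gm10800, a predicted gene, held 25996, 28055 and 16665 CPM per kb, and Crebzf, a leucine zipper factor gene, held 4421, 5953 and 3728. The others, Gm10801, Gm10722, Gm21738, AC149090.1, Gm11168 and Gm17535, had means from 192 to 3061 CPM per kb. Soft-masked sequence (marked as repeats in the reference) made up 59.5% of the Gm10800 window and 92.8% of the Gm10722 window, and the Crebzf window contains a run of 45 G or C bases. LacZ-3 had the lowest level at 7 of these 8 windows. Whether their reads come from these sites was not tested.

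With windows of these kinds left out (over 100 CPM per kb, at least 50% soft-masked, 15 or more G or C in a row, or a match to the mitochondrial genome), 13832 protein-coding windows were ranked. Plin4, a coat protein of lipid droplets, came first with 63.3, 82.3 and 90.8 CPM per kb. Pnmt, the enzyme that makes adrenaline, and Tcap, the titin cap protein of the Z-disc, were next at 67.4 ± 16.3 and 64.4 ± 14.9 CPM per kb (SD, n = 3). Both lie under a single peak (chr11:98382914-98389285), so their levels are not separate measurements. Atp2a1 followed Tcap. Slc2a4, the insulin-responsive glucose transporter GLUT4, held 51.4, 58.6 and 69.0 CPM per kb. Nmrk2, a muscle kinase of NAD synthesis, held 44.7, 59.6 and 68.9, and Tnni2, the fast troponin I gene, held 47.7, 56.7 and 66.2. These muscle genes were lowest in LacZ-1, the library with the highest background, and so were Tob1, Fkbp2, Tubb4b and Gapdh, which are not muscle markers.

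Genes that are not specific to muscle were also among the highest. Tob1, an antiproliferative regulator, held 61.1 ± 7.46 CPM per kb, Fkbp2, a prolyl isomerase of the endoplasmic reticulum, held 51.9 ± 9.18, Tubb4b, a tubulin, held 50.7 ± 5.13, and the glycolytic gene Gapdh held 46.3 ± 7.14 (SD, n = 3). The genes 4931408C20Rik and AW822073 went the other way across libraries, at 65.3, 39.7 and 39.9 and at 61.9, 37.5 and 41.5 CPM per kb, and so did Duxf3, a double homeobox gene, at 64.8, 32.4 and 38.3, and Mroh2a at 51.4, 35.5 and 39.5. All 4 were highest in LacZ-1. Without LacZ-1, 95 of the highest 100 windows in this ranking stayed among the highest 100.

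**Figure D1:**
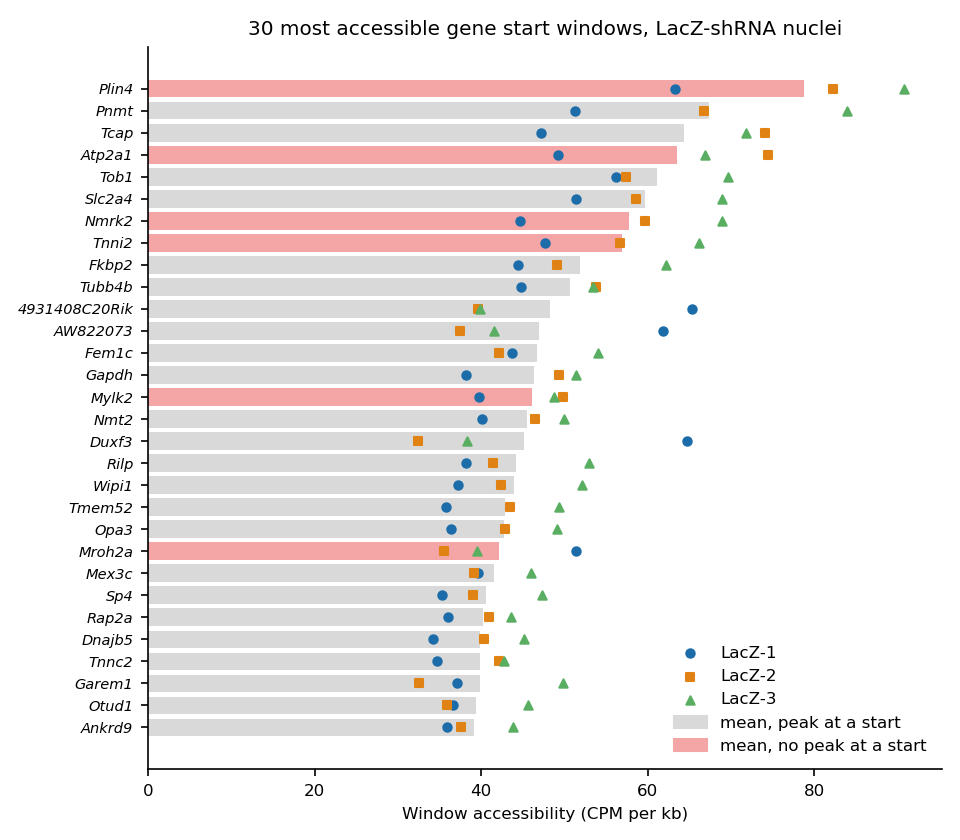
Accessibility in CPM per kb (x axis) of the 30 protein-coding windows with the highest mean in the LacZ-shRNA libraries, after repeat-rich, extreme and overlapping windows were left out. Bars are means, points are the 3 libraries and red bars mark genes with no peak within 1 kb of a start, among them Plin4, Atp2a1, Nmrk2, Tnni2 and Mylk2. Plin4 is highest with a mean of 78.8 CPM per kb, and LacZ-1 is the highest point for 4931408C20Rik, AW822073, Duxf3 and Mroh2a.

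Several of the most open starts had no row in the peak table. Of the 100 highest windows in this ranking, 89 had a peak within 1 kb of a start and 11 did not, and 4 of the 10 highest were without one. Plin4, Atp2a1, Nmrk2, Tnni2, Mylk2 (skeletal myosin light chain kinase), Mybpc2 (fast myosin-binding protein C), Per1 (a clock gene), Tnnt3 and Mroh2a were in this group. At Atp2a1 the nearest peaks lay 17092 bp and 8982 bp to either side of its starts, and their serial numbers in the table were consecutive. The serial numbers to either side also differed by 1 at each of the other genes named except Mroh2a, where they differed by 2 and the nearest peaks lay 191442 bp and 73447 bp away. In the whole ranking, 73.1% of the 5837 open windows and 20.03% of the 7995 others had a promoter peak. The reason for the absent rows was not tested.

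The 15 fast fibre contractile genes had a median of 29.7 CPM per kb, at the 99.3rd percentile of protein-coding windows. In this list 13 genes were open, 12 lay at or above the 90th percentile and 7 had no promoter peak. Besides Atp2a1 and Tnni2, Tnnc2, the fast troponin C gene, held 34.7, 42.1 and 42.7 CPM per kb and Pvalb, the calcium buffer parvalbumin, held 26.3, 30.7 and 32.1. The exceptions were Myh2, the 2A myosin, at 6.38, 3.56 and 5.34 and Myh1, the 2X myosin, at 3.29, 5.37 and 3.79 CPM per kb. Neither met the rule for open windows in all 3 libraries and neither had a promoter peak, although the Myh1 window overlaps another gene's. Of the 11 slow fibre contractile genes 6 were open, beside 34.1% of all protein-coding windows. Their median was 7.49 CPM per kb, at the 70.5th percentile, and 7 of the 11 had no promoter peak. Myh7, the slow myosin, held 4.99, 6.46 and 5.45 CPM per kb in a window that overlaps another gene's.

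Fast isoform genes exceeded their slow counterparts in every library for the 9 pairs compared. The Tnni2 window held 6.65, 6.95 and 9.30 times the level of Tnni1, a mean ratio of 7.63 ± 1.46 (SD, n = 3). For Tnnt3 over Tnnt1 the ratio was 5.73 ± 0.850, for Tnnc2 over Tnnc1 5.26 ± 0.939 and for Atp2a1 over Atp2a2 6.06 ± 0.922. Casq1 over Casq2, the calsequestrins of the calcium store, gave 3.61 ± 0.394, and Myh4 over Myh7 gave 2.70 ± 0.334. The smallest ratios were 1.49 ± 0.257 for Actn3 over Actn2, the Z-disc α-actinins, and 1.41 ± 0.0768 for the myosin light chains Myl1 over Myl3. Windows of the slow genes Tnnc1, Myh7 and Myl3 overlap another gene's and can be undercounted, which would raise their ratios, and so can those of the fast genes Actn3, Casq1, Myh4 and Mylpf, which would lower theirs. The pairs free of overlap were Tnni2, Tnnt3 and Atp2a1 with their partners. Actn2, which fast fibres contain as well, was the highest of the slow list at 13.6 CPM per kb. Skeletal isoforms also exceeded those of the heart, with 8.70 ± 1.24 for Tnni2 over Tnni3 and 5.32 ± 1.48 for the calcium release channels Ryr1 over Ryr2. Fewer slow fibre nuclei and lower accessibility in each nucleus cannot be told apart in pooled nuclei, and since Tnni2, Tnnt3 and Atp2a1 have no promoter peak their ratios hold for windows only.

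**Figure D2:**
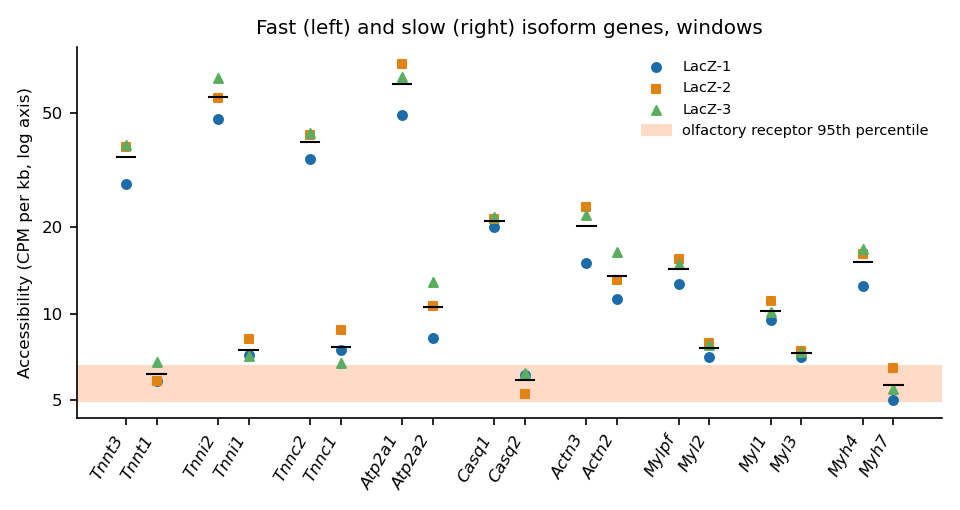
Window accessibility in CPM per kb (log y axis) of 9 fast isoform genes, each beside its slow counterpart, in the 3 LacZ-shRNA libraries (points) with their mean (line). Each fast gene lies above its partner in all 3 libraries, by 7.63 times for Tnni2 and 1.41 times for Myl1, and the shaded band spans the olfactory receptor 95th percentiles, 4.96 to 6.58 CPM per kb.

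Genes of the sarcomere scaffold were open in 15 of 16 cases, with a median of 19.2 CPM per kb. Below Tcap came Des, the intermediate filament desmin, with 24.4, 30.1 and 34.8 CPM per kb, and Ldb3, a Z-disc adaptor, with 24.4, 29.9 and 30.2. Ttn and Neb, which encode the giant filament proteins titin and nebulin, were lower at 17.1 ± 3.16 and 10.9 ± 1.75. Mybpc1, the slow myosin-binding protein C, was the 1 member that was not open, at 5.29, 7.57 and 6.39. For excitation-contraction coupling, 12 of 15 genes were open, led by Ryr1 at 23.1 ± 1.34 CPM per kb and the junctophilin genes Jph1 and Jph2 at 22.8 ± 2.34 and 22.1 ± 3.96, which hold the calcium store against the surface membrane. Sln, which encodes the pump regulator sarcolipin, held 4.05, 2.10 and 3.85 and was not open.

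The lists of metabolic genes differed in level, and their open shares stand beside 34.1% of all protein-coding windows. In the list of glycolysis and glycogen genes, 16 of 17 were open and 14 lay at or above the 90th percentile, with Pygm, the muscle glycogen phosphorylase, at 36.1 ± 5.50 CPM per kb and Pgam2, the muscle phosphoglycerate mutase, at 28.2 ± 3.02. Hk2, the hexokinase of insulin-responsive tissue, held 13.2, 14.7 and 17.2. Of 15 fatty acid oxidation genes 9 were open and 2 lay at or above the 90th percentile, Ucp3, a mitochondrial carrier of muscle, at 23.9 ± 3.86 and Eci1, an enoyl-CoA isomerase, at 16.96 ± 1.69 CPM per kb. Among 14 genes of the TCA cycle 8 were open, with the succinate dehydrogenase gene Sdhb at 28.0 ± 4.99 and Cs, citrate synthase, at 26.4 ± 3.79. Windows that overlap another gene's and can be undercounted made up 7 of 17, 9 of 15 and 6 of 14 in these lists. Fabp3, a fatty acid carrier, held 0.821 ± 0.427 CPM per kb and Etfdh, an electron transfer enzyme, 1.12 ± 0.461, but both windows overlap another gene's and their promoter peaks held 78.9 and 63.8 CPM.

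Transcription factor genes of the muscle lineage were open in 12 of 14 cases. Myod1, the myogenic determination factor, was the highest at 31.7, 33.2 and 40.8 CPM per kb. Myf6 followed at 23.1 ± 3.86 and Mef2d at 21.2 ± 2.61, while Myog, myogenin, held 15.4 ± 0.514. Mef2c was the lowest, at 4.53, 4.64 and 4.95. Immediate early genes, which respond rapidly to stimulation, were open in all 13 cases measured, with a median of 16.4 CPM per kb, Egr1 at 29.7 ± 4.70 and Nr4a1 at 27.0 ± 5.09. Of 12 circadian clock genes 11 were open, with a median of 16.6, led by Dbp at 38.6 ± 5.29, Per1 at 35.5 ± 5.44 and Nr1d2 at 34.7 ± 3.30. Among 17 ubiquitously expressed genes 8 were open, with a median of 7.03 CPM per kb, but 10 of those windows overlap another gene's. Genes of the neuromuscular junction were open in 8 of 12 cases, with Dok7, an adaptor of the receptor kinase Musk, at 20.6 ± 4.10, and atrophy and Foxo genes in 8 of 12, with the ubiquitin ligase gene Trim63 at 24.6 ± 3.82. The open share of all protein-coding windows, 34.1%, stands beside each of these lists.

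Genes of the Yap pathway were intermediate in these control nuclei. Of 16 genes for Yap, Taz, their Tead partners, Vgll cofactors and the Hippo kinases, 8 were open, beside 34.1% of all protein-coding windows. Their median was 7.03 CPM per kb, at the 66.3rd percentile, but 6 of the 16 windows overlap another gene's and can be undercounted. Tead4 held 13.3, 16.5 and 15.1 CPM per kb and Tead3 11, 12.4 and 14.5. Wwtr1, which encodes Taz, held 8.75, 8.66 and 10.9. Yap1 held 1.803, 2.28 and 2.02, but its window overlaps another gene's and its promoter peak held 21.8 CPM.

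Marker lists of other cell types had medians far below that of the fast fibre contractile genes, 29.7 CPM per kb, but nearer to the slow fibre median of 7.49. They were above that of olfactory receptor genes. Their list medians ran from 4.38 CPM per kb for fibroblasts and fibro-adipogenic progenitors, over 5.09 for leukocytes, 5.44 for hepatocytes, 5.50 for Schwann cells, 5.78 for endothelial cells, 5.93 for adipocytes and 6.00 for smooth muscle and pericytes, to 6.53 for neurons. All protein-coding windows had a median of 5.56 and olfactory receptor windows one of 3.21, so several of these lists lay near the middle of all genes. Open genes numbered 1 of 12 in the fibroblast list, 2 of 11 for leukocytes, 1 of 9 for hepatocytes, 0 of 8 for Schwann cells, 3 of 10 for endothelial cells, 2 of 8 for adipocytes, 2 of 9 for smooth muscle and pericytes and 3 of 9 for neurons, beside 34.1% of all protein-coding windows. The endothelial and neuron shares were thus close to that of all genes. Members differed within a list. Ptprc of leukocytes held 4.50, 3.01 and 3.04 CPM per kb, but C1qa, a complement gene of macrophages, held 6.90, 9.91 and 8.03, and Pecam1 of endothelial cells held 3.92, 4.98 and 4.50 in an overlapping window, but the tight junction gene Cldn5 held 6.81, 10.4 and 10.3. Pdgfra of fibroblasts held 3.12, 3.91 and 3.93, also in an overlapping window. Abcc9, a potassium channel subunit listed for pericytes that muscle fibres also express, held 13.5 ± 1.85. The part of other cells in these levels was not tested. Markers of satellite cells, the stem cells of muscle, were open in 4 of 10 cases, near the 34.1% of all protein-coding windows. Cdh15, a cadherin of the muscle lineage, held 17.02, 18.3 and 20.2 CPM per kb. Pax7, which defines these cells, held 6.64, 8.82 and 8.36 CPM per kb and had no promoter peak. Its window was above the limit for open windows in each library, but narrowly in LacZ-1, where the limit was 6.58. The series design text names cardiomyocytes. Of 12 heart genes 2 were open, Myl7 and Mybpc3, beside 34.1% of all protein-coding windows, with a list median of 5.98 CPM per kb. The heart markers Nppa and Myh6 held 5.52, 3.76 and 6.97 and 5.52, 5.93 and 6.08 CPM per kb, in libraries whose labels give skeletal muscle.

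**Figure D3:**
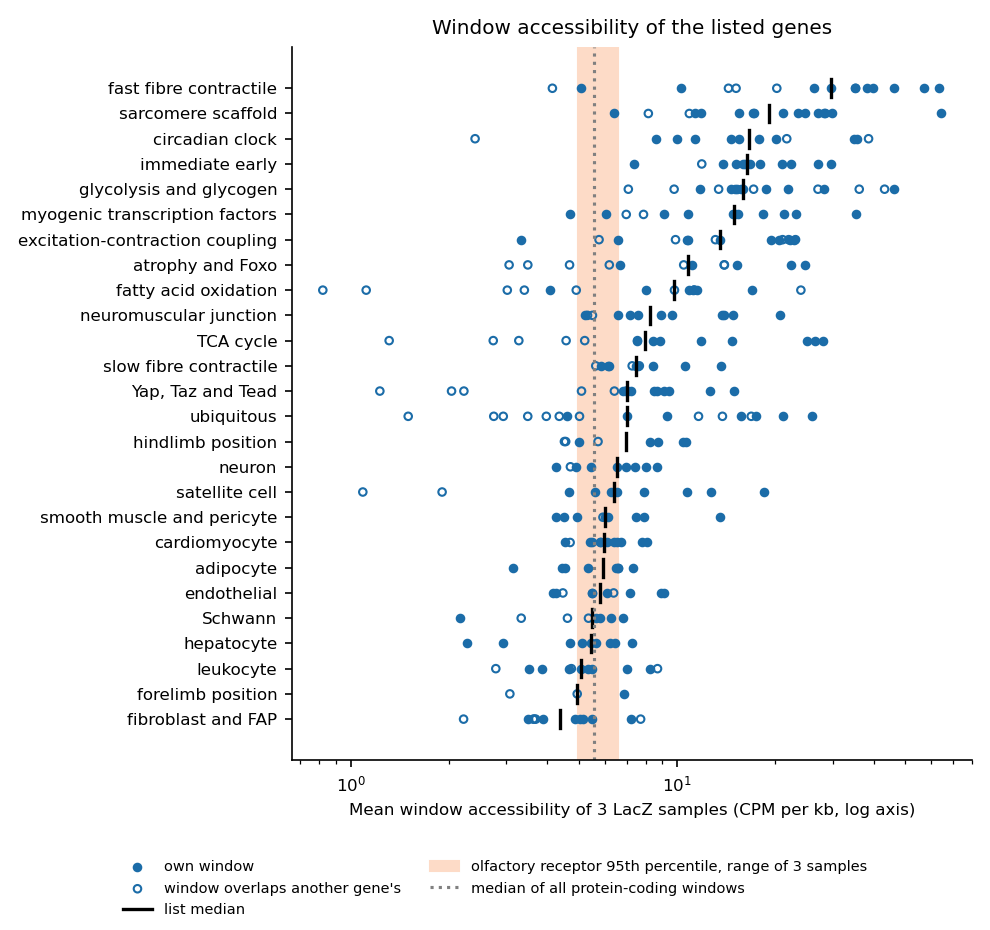
Mean window accessibility over 3 LacZ-shRNA libraries (CPM per kb, log x axis) for every measured gene of the gene lists. Black bars are list medians, open circles are windows that overlap another gene's, the shaded band spans the olfactory receptor 95th percentiles and the dotted line is the median of all protein-coding windows. Fast fibre contractile genes have the highest median of the fibre and cell type lists, 29.7 CPM per kb, and most genes of other cell types fall in or near the band.

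Of the positional genes of the limb, 4 of 8 hindlimb and 0 of 3 forelimb genes were open, beside 34.1% of all protein-coding windows. The lists are too short to set these shares apart from that of all genes. Windows of 3 of the 8 hindlimb and 2 of the 3 forelimb genes overlap another gene's and can be undercounted. Hoxc11 held 10.2, 9.76 and 12.0 CPM per kb and Tbx4, the hindlimb T-box gene, 7.67, 7.36 and 9.68. Tbx5, its forelimb counterpart, held 5.87, 3.67 and 5.28 in a window that overlaps another gene's, and Tbx4 exceeded it in all 3 libraries with a ratio of 1.71 ± 0.364 (SD, n = 3). Pitx1, a hindlimb factor, exceeded Tbx5 in 2 of 3.

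The sex chromosomes lay apart from the autosomes. Leaving out olfactory receptor genes, 5.596% of protein-coding windows on X and none on Y were open, against 26.7 to 48.1% on the 19 autosomes. The median window on X held 2.47 CPM per kb, below every autosome (4.86 to 6.97). Promoter peaks on X were closer to the others, with a median of 20.3 CPM per kb against 21.8 to 24.8. The mice were male, so the number of copies and the accessibility of each copy cannot be told apart.

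Base composition of the start went with the level. Among 9458 genes with a RefSeq promoter and a window of their own, 3675 had a CpG-rich start (at least 50% GC and an observed over expected CpG ratio of at least 0.6), and 68.8% of these were open with a median of 8.52 CPM per kb. The other 5783 were open in 23.8% of cases, with a median of 4.84. Genes of the contractile apparatus, the scaffold and calcium handling were mostly of the second kind. Of 19 such genes 17 had a CpG-poor start, with a median of 11.3 CPM per kb over all 17, and 12 of the 17 were open. Among CpG-poor starts, 16.7% of the 359 with TATAAA near the start and 24.3% of the 5424 without it were open.

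In the peak table, 12725 peaks were promoter peaks (within 1 kb of a transcript start), 11738 were genic and 11634 intergenic. Promoter peaks made up 35.3% of peaks and held 56.2, 56.2 and 59.7% of peak counts. Their median of 23.8 CPM per kb was above those of genic (17.6) and intergenic peaks (9.48). Repeats differed between the classes, since peaks that were at least 50% soft-masked made up 3.65% of promoter, 33.1% of genic and 60.3% of intergenic peaks. Masked peaks had medians of 7.58, 5.68 and 4.70 CPM per kb in these classes. The other peaks had medians of 24.1, 20.9 and 20.1, a much narrower range. Masked intergenic peaks held 6.02, 4.25 and 3.67 CPM per kb in the 3 libraries, highest in LacZ-1 as for olfactory receptor windows.

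**Figure D4:**
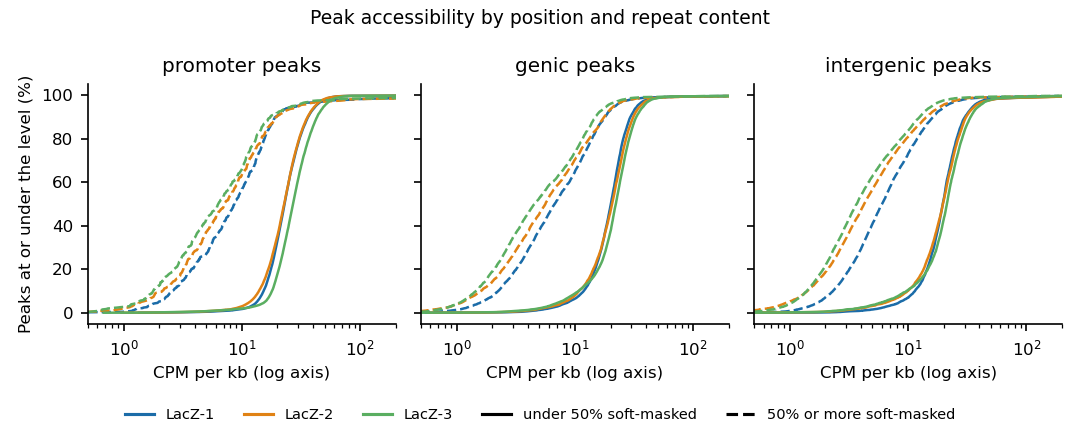
Cumulative share of peaks (y axis, %) at or under each accessibility level (CPM per kb, log x axis) for promoter, genic and intergenic peaks in each LacZ-shRNA library, split at 50% soft-masked sequence. Peaks under that share had medians of 20.1 to 24.1 CPM per kb in the 3 classes, and masked peaks lie lower and are highest in LacZ-1.

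A small set of peaks took a large part of the counts. The 177 peaks over 100 CPM per kb held 24.0, 25.2 and 16.2% of peak counts, and the peak over Gm10800 (chr2:98665982-98667639) alone held 7.41, 7.24 and 4.36%. Runs of 15 or more G or C bases lay in 64 of the 177 and in 405 of all peaks. Outside promoters, the highest level was in an exonic peak of Chl1 (chr6:103648772-103649568), at 26442, 26509 and 13220.5 CPM per kb, and the next in an intergenic peak 12017 bp from BC048403 (chr10:121762897-121763619), at 14177, 15901 and 11272. Part of the second is shown because of its run of 42 C bases, in capitals.
chr10:121763195-121763314, plus strand: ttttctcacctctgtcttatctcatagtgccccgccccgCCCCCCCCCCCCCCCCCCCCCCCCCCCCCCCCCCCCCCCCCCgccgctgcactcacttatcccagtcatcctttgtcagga

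The other 8 of the 10 highest lay in Gm15218 (chr14:45812168-45813178), near Amot (chrX:145514784-145515361), in Znhit1 (chr5:136982439-136983111), in Gm33838 (chr9:35304970-35305890), beside Gm10800 (chr2:98664651-98665515), near Gm9075 (chr12:3109603-3110394), in Tiam2 (chr17:3379499-3380136) and near A630089N07Rik (chr16:98107026-98107900), with means from 2183 to 12548 CPM per kb. Summed distal accessibility within 50 kb of a gene start was highest for BC048403, at 10268, 11511 and 8161 CPM.

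Distal peaks were therefore ranked again by CPM without extreme, repeat-rich and mitochondrial peaks and those on unplaced scaffolds, which left 12185 of 23372. The highest was a peak in a cluster of zinc finger genes (chr4:147427391-147434589), whose values of 499, 238 and 248 CPM set LacZ-1 apart. Next came a peak over the 3′ end of Myh4 (chr11:67258140-67264616), with 274, 318 and 355 CPM, and one over the 3′ end of Mylk2 (chr2:152921794-152927977), with 274, 335 and 315 CPM. An intergenic peak 2737 bp upstream of Mylk2 held 183, 209.8 and 206 CPM. Among the 30 strongest, chosen for muscle genes after their values were seen, were peaks 12133 bp from Tef, a clock-controlled factor (221 ± 21.1 CPM), 10874 bp from Nr4a1, an orphan nuclear receptor (184 ± 29.5), 4022 bp from a start of Tpm1, a tropomyosin (180.2 ± 20.4), 12293 bp from Des (155 ± 7.13), 6765 bp from Pvalb (139 ± 13.3) and 27445 bp upstream of Myh2 (138 ± 8.75, each SD with n = 3). The last was strong although the Myh2 window was not open. The strongest 1% of these distal peaks held 6.09% of their counts, in a ranking by CPM that favours wide peaks.

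**Figure D5:**
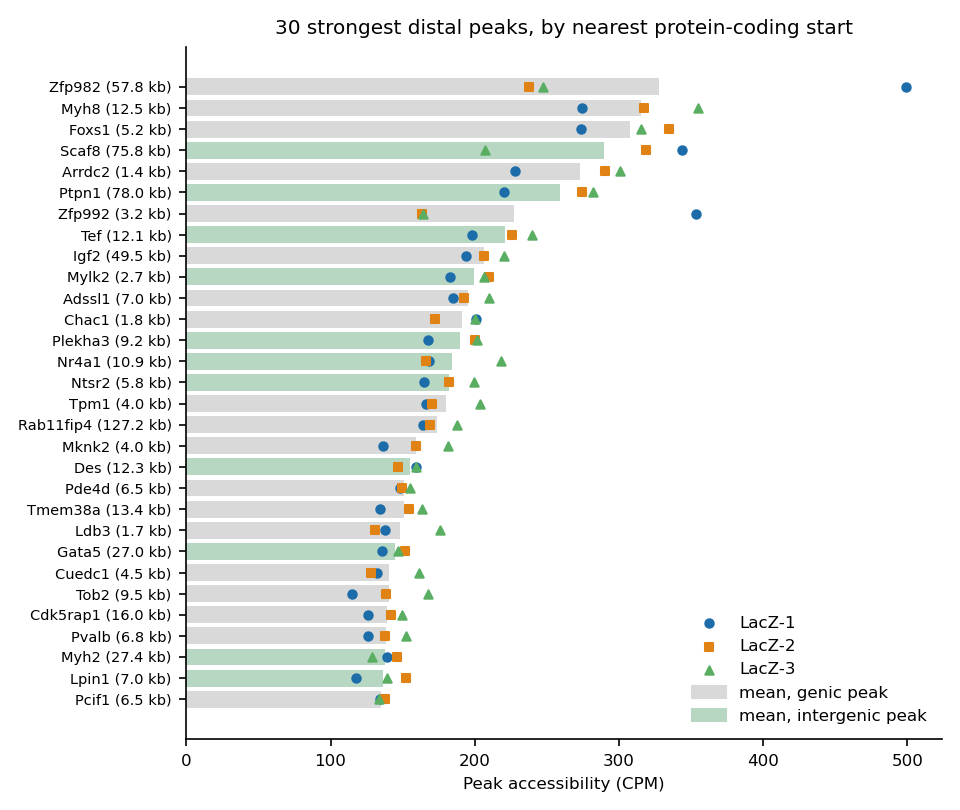
Accessibility in CPM (x axis) of the 30 strongest distal peaks kept, named by the nearest protein-coding start and its distance. Bars are means of the LacZ-shRNA libraries and points the 3 libraries. The peak named for Myh8 covers the 3′ end of Myh4 and that named for Foxs1 the 3′ end of Mylk2, and LacZ-1 lies far above the others at the zinc finger genes Zfp982 and Zfp992.

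Stretches of 300 bases from distal peaks at muscle genes are shown for their motif matches, with the same capitals as above except that TATAAA was not marked. Each was chosen as the stretch of its peak outside exons with the most kinds of match, so the matches are no finding about it.
Mylk2, chr2:152905299-152905598, plus strand: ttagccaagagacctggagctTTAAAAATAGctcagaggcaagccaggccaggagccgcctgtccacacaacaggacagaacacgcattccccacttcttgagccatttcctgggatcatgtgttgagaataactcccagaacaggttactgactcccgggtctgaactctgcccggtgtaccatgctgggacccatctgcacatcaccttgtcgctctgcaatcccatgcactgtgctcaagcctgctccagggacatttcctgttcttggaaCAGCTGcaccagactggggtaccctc
Myh2, chr11:67139691-67139990, plus strand: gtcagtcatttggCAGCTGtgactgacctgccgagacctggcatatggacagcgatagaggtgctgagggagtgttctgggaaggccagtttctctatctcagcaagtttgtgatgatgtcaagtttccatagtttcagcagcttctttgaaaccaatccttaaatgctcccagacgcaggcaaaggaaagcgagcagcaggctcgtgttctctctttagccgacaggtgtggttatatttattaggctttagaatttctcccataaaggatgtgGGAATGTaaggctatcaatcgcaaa
Tpm1, chr9:67026114-67026413, plus strand: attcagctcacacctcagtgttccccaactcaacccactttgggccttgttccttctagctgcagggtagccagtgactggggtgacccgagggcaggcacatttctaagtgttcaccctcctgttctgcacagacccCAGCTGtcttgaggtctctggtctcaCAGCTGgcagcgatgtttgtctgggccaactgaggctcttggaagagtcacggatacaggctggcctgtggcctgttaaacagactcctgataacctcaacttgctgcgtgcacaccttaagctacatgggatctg

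The Mylk2 stretch held a MEF2 match and an E-box, the Myh2 stretch an E-box and a TEAD match, and the Tpm1 stretch a pair of E-boxes. In the central 300 bases, CAGCTG was found in 17.2% of all peaks and 25.5% of the 12185 distal peaks kept, the MEF2 consensus in 3.96 and 5.75%, and ACATTCC in 2.17 and 3.82%. Across the kept distal peaks, motif shares differed mainly between the 20% of lowest accessibility and the rest. CAGCTG was present in 12.6% of the lowest group and in 25.9 to 30.4% of the next 4, ACATTCC in 1.56% and then 3.12 to 5.33%, the MEF2 consensus in 2.42% and then 5.29 to 7.30%, and the AP-1 site TGANTCA in 5.09% and then 10.7 to 11.2%. Median GC content of the lowest and highest group was 51.5 and 50.1%. The glucocorticoid receptor consensus went from 1.03 to 3.78% over the 5 groups, while CTCF sites were found in 1.15, 3.65, 3.20, 1.97 and 0.944%. Counted per kilobase over whole peaks, CAGCTG had 0.866 matches in the lowest group and 0.897 in the highest, ACATTCC 0.117 and 0.157, TGANTCA 0.281 and 0.346, and the MEF2 consensus 0.0704 and 0.174. The differences in the first 3 were thus much smaller over whole peaks than in the central bases. Among promoter peaks, the Sp and Klf site GGGCGG went from 49.0 to 72.5% and ACATTCC from 1.96 to 1.83%.

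Distal accessibility within 50 kb, summed over the kept peaks, was highest around 10 genes that fell into 4 neighbourhoods and share peaks within them. Atg101, an autophagy gene, and Nr4a1 held 567, 629.7 and 733 and 468, 524 and 612 CPM on chromosome 15. Phf5a, Tob2 and Tef, elsewhere on chromosome 15, held means from 513 to 598 CPM. Mylk2 held 548, 649 and 616 CPM with Foxs1 and Dusp15 beside it on chromosome 2, and Lpin1, a phosphatidate phosphatase gene on chromosome 12, held 426, 499 and 503. Of 22028 genes, Myh4 ranked 13th at 402 ± 41.3 CPM, Tpm1 18th at 356 ± 24.7 and Myod1 20th at 348 ± 29.5 (SD, n = 3). Among fast fibre contractile genes 8 of 15 were in the top 5%, as were 8 of 16 scaffold genes and 8 of 15 genes of excitation-contraction coupling. In the slow list 1 of 11 was, and none of the 12 fibroblast, 10 endothelial or 12 leukocyte genes was. Tnnt3 had 0 kept distal peaks within 50 kb and Atp2a1 had 1, at 25.1 CPM. Both also lack a promoter peak although their windows were open, so distal peaks around them may be missing as well. Whether they are was not tested.

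Replicate spread limits how finely these rankings can be ordered. In windows and peaks with a mean CPM above the median, the median coefficient of variation was 14.4 and 14.0%. The median expected from counting alone was 10.4 and 9.83%. These coefficients cannot be subtracted to give the spread beyond counting. The SDs of the 16 highest windows, from Plin4 to Nmt2, ran from 4.99 to 16.3 CPM per kb and exceeded each gap between neighbours in the order except that between Plin4 and Pnmt, which was below both their SDs. These SDs include shifts between libraries that windows share, which leave the order within a library unchanged. Ranks in LacZ-1, LacZ-2 and LacZ-3 were 3, 1 and 1 for Plin4 and 10, 8 and 8 for Tnni2, but 1, 24 and 48 for 4931408C20Rik. The 5 windows of largest spread were Cyp3a63-ps, Gm13149, Vmn1r167, Gm6558 and Tslrn1, with coefficients from 67.6 to 70.9%, and Vmn1r167, a pheromone receptor gene, held 20.3, 5.71 and 7.70 CPM. Among repeat-poor protein-coding windows the 15 most variable were all highest in LacZ-1, and 8 were olfactory receptor genes. Among the lowest coefficients, those at Inpp5b, Gm10030, Pcca and 5330429C05Rik were from 0.156 to 0.181%, below counting error. For peaks, the 5 of largest spread had coefficients from 66.8 to 73.6% and lay near Gm8178, Zfp992, Gm16427 and Gm15767 and on an unplaced scaffold, and the 5 of lowest spread lay near Gm38381, Foxk1, Ext2, Gm13920 and Ubtd1.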

How the data were processed

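ATAC-seq was performed on sorted Pcm1(+) nuclei. The authors mapped paired reads to GRCm38, removed duplicates, called peaks in each sample, kept those found in at least 2 samples and counted reads in peaks and around transcript starts of Ensembl genes. The submitters' processing notes name BWA 0.7.17, SAMtools 1.8, MACS 1.4.2-1 and featureCounts 1.5.0. The deposited values are raw counts, without rows whose mean count was below 10. The study's methods give a mapping-quality minimum of 10 for counts over whole genes. Whether it was applied to these window and peak tables is not stated, so reads from repeats may be included. Columns of the Yap-shRNA group were not used.

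Counts were divided by each library's total in its table and by window or peak length. Windows reached 1 kb up- and downstream of all annotated starts of a gene, and 4451 of 4452 windows checked held the counts of the peaks inside them. Windows that overlap another gene's (10344 of 49366) were undercounted. Peaks and windows were annotated with GENCODE of the same build, and mitochondrial matches were found with blastn 2.17.0 at 1e-05. Dispersion was estimated with edgeR 4.0.16 in R 4.3.3, after a check on simulated data. No test between groups was made. Precision is given as the SD over 3 libraries, and intervals for counting error are not given.

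Genes and lists were chosen with earlier results of these data known. Named windows are the 20 most accessible protein-coding ones that overlap no other, the markers, and from each list the highest, the lowest and up to 6 others. Named peaks are the 10 highest distal ones by CPM per kb, with the 10 genes of highest distal accessibility, and for spread the 5 highest and 5 lowest windows and peaks. Leaving out extreme and repeat-rich features, and the rankings made after that, were chosen after seeing the data. Alternatives covered length scaling, TMM factors, overlapping windows, gene biotypes, promoter distance, low counts, thinning, motif window and each library left out. Some features that meet these rules are not reported here.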

Additional observations from a re-analysis of the deposited data

How the results depend on the processing

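No paired analysis was possible because no comparison between groups was made. The median percentile of fast fibre genes was 99.31, and it was 99.65 in windows that overlap no other, 95.15 by CPM without length, 84.55 by summed promoter peaks, 99.62 among all biotypes and 99.56 without repeat-rich and extreme windows. For slow fibre genes 70.48 became 64.47, 80, 24.09 and 84.68 under the first 4 of these, and for leukocyte genes 44.38 became 36.4 in windows that overlap no other, 24.09 by promoter peaks and 61.95 among all biotypes. By promoter peaks, genes without a row count as 0. The promoter share of peak counts, 57.34%, became 60.6% at a distance of 2 kb, 54.07% by peak centre, 61.17% at a mean count of at least 50 and 62.88% without repeat-rich and extreme peaks. Of the highest 100 windows 21, and of the highest 100 peaks 59, were shared with a ranking by CPM without length. After the filter 15 windows were shared by CPM and 27 by promoter peaks. For genes ranked by distal accessibility, 42 of 100 were shared at 20 kb, 53 at 100 kb, 21 by number of peaks and 53 after the filter. With the filter the shares were 41, 51 and 56 at 20 kb, at 100 kb and by number of peaks. The lowest Spearman correlation fell from 0.8585 to 0.8163 for windows and from 0.9505 to 0.9105 for peaks at a mean count of at least 50. In ratios of the highest to the lowest 20% of distal peaks, MEF2 turned to 0.7471 over all distal peaks and CTCF to 1.052 per kilobase of whole peak. The cause of these shifts was not tested. Leaving out 1 library kept at least 91 of the highest 100 windows and moved list medians by at most 6.99 percentile points. Orders of single windows are limited by depth, lowest in LacZ-2 with a median of 32 counts per window.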

Other observations

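The peaks of largest spread after the repeat filter clustered on chromosome 4. Of the 15 most variable kept peaks, 10 lay between positions 145835076 and 147390482 of chromosome 4 (GRCm38), in a cluster of zinc finger genes, and all 15 were highest in LacZ-1. This interval was drawn around them after their values were seen. It holds 33 kept peaks, of which 33 were highest in LacZ-1, against 18.4% of all kept peaks. Their median levels were 30.3 CPM in LacZ-1, 13.9 in LacZ-2 and 13.2 in LacZ-3. The cause was not tested.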
